A study of Mus musculus with 8 samples.

Results

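The developmental transcription factors described here are the homeobox, forkhead, SRY-box, GATA, T-box and paired-box families whose names begin with Hox, Fox, Sox, Gata, Tbx, Pax, Lhx, Dlx, Irx, Meis, Pbx or Nkx, together with the sine oculis homeobox genes. They were taken by name and by level: of 158 rows with such a name among the 17597 genes of the authors' deposited table, 71 had a mean count of at least 10. Sox2 and Tbx3, which mouse embryonic stem cells (mES cells) express strongly, were left out, and 69 genes in 12 of the 13 families remained. Of these, 67 encode proteins and 2, Sox2ot and Tbx3os2, are noncoding transcripts of the Sox2 and Tbx3 loci. The mean count is the number of read pairs per gene after scaling for library size, averaged over all libraries of both groups. The member with the lowest mean count was Sox17, at 10.5, and the row just under the limit was Tbx21, at 9.81.

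Each of these proteins binds DNA through a conserved domain and switches on or represses the genes of a lineage, and together they lay out the body axis and specify germ layers and organs. In embryonic stem cells most of them are silent or nearly so: their promoters lie in CpG islands that Polycomb complexes keep in a poised, repressed state until differentiation begins. Their genes tend to have few introns, and m6A, the methyl mark that METTL3 writes on RNA, is placed mainly in long exons and near stop codons within the DRACH motif, of which GGACT is a common form. The mark often shortens the life of an RNA.

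The cells were Cast x 129S mES cells in which both copies of METTL3 carried the FKBP12F36V degron, a domain that sends the fused protein for destruction once dTAG-13 is added. Total RNA was sequenced from 8 libraries: 4 from cells given dTAG-13 for 26 hours and 4 from untreated cells of the same lines. Each group held 2 clones, C3 and H5, tagged at the C terminus, with 2 replicates per clone, and every library shared a TetOn promoter in place of the endogenous Xist promoter and had no doxycycline, so Xist was not induced. Both groups were grown with LIF and serum on mitomycin-treated fibroblast feeders, whose RNA can enter a library. The comparison asks which transcripts change within about a day of removing METTL3. The table gives a mean count over both groups, a log2 fold change and its standard error (SE) for each gene and no value per library, so levels within single libraries are not analysed here. The numerator is not named. Positive values were taken to mean more RNA with dTAG-13, and every direction given would flip if the contrast were inverted. The Mettl3 transcript (mean count 684) had a log2 fold change of -0.092 (SE 0.31, adjusted p = 0.886). The degron removes protein, so this value checks no label.

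Most of the families had low RNA levels. The 69 members summed to a mean count of 13596, or 0.0934% of the sum over the 13590 genes that reached a mean count of 10, and 41 of them lay under 100. Only Foxn2 (1684), Foxo4 (1190) and Six4 (1073) had a mean count of 1000 or more. Per kilobase of transcript the order was different, with Foxh1, the forkhead partner of SMAD proteins in Nodal signalling, highest at 564 counts per kb and Sox17 lowest at 3.35. The Hox genes, which pattern the body axis from head to tail, were barely detected: 27 of 30 rows lay under a mean count of 10. The Hoxd cluster summed to 62.4, Hoxc to 28.5, Hoxa to 27.0 and Hoxb to 12.2. No Dlx gene, a family of the forebrain and branchial arches, reached the limit, and the highest, Dlx3, stood at 7.84. All 3 Meis and all 4 Pbx genes, whose products pair with Hox proteins on DNA, were above it.

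**Figure D1:**
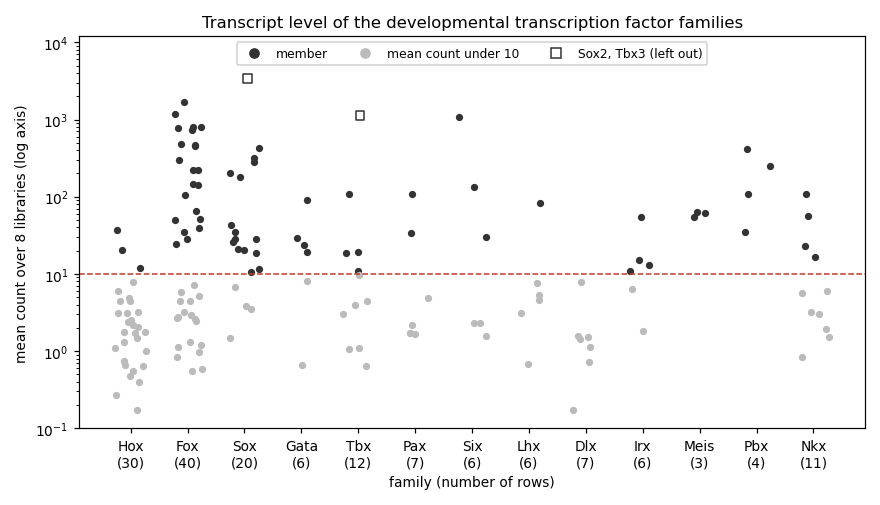
Mean count over the 8 libraries on a log axis for the 158 rows of the 13 families, with 1 point per row. Black points are the 69 members, grey points the 87 rows under a mean count of 10 (dashed line), and open squares Sox2 and Tbx3. The Fox and Sox families hold most members above 100, and the Hox and Dlx points lie mostly or wholly under the line.

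A gene counted as past the threshold where its deposited adjusted p was under 0.05 (Wald test of DESeq2, Benjamini-Hochberg adjustment over all features). Of the 69 members, 8 were higher with dTAG-13 (11.6%), where 13.5% of the 13590 genes at or above the same limit were higher. One member was lower (1.45%), where 12.0% of all genes were lower. The higher members included Sox18, Irx4, Foxo6, Foxa2, Foxi3, Irx2 and Foxa3, and the lower one was Foxr2. The share called higher was thus close to the background, and the share called lower was below it. Sox18 and Irx4 had derived untreated levels of 6.16 and 6.08 and reached the limit of 10 only through their level with dTAG-13. The median log2 fold change of the members was 0.12 against -0.010 for all genes, and 46 of the 69 (66.7%) were above 0 against 49.0% of all genes, a contrast that takes in the lower level of the members. At an unadjusted p under 0.05 there were 15 members higher and 5 lower. The share of all genes at or above a mean count of 10 with such a p was not worked out, here or below. These unadjusted counts therefore have no background beside them.

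The shares differed with level. Among the 41 members with a mean count from 10 to under 100, 7 were higher (17.1%) against a background of 13.9% at that level. Sox18 and Irx4, which entered through their level with dTAG-13, are among these 7. None was lower by the Wald test of DESeq2, against a background of 4.12%, and 2 were lower at an unadjusted p under 0.05. Their median was 0.21, and that of all genes in the range was 0.17. Of them 73.2% were above 0, against 62.7% of all genes in the range. Among the 28 members with a mean count of at least 100, 1 was higher, where 13.3% of such genes were higher. Only Foxr2 was lower, where 15.0% were lower. These members had a lower level and a larger error than the genes beside them. Their median mean count was 292 against 660 for all genes at that level, and their median SE 0.17 against 0.14. Their median log2 fold change was 0.050 against -0.050, and 57.1% of them were above 0 against 43.9%.

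**Figure D2:**
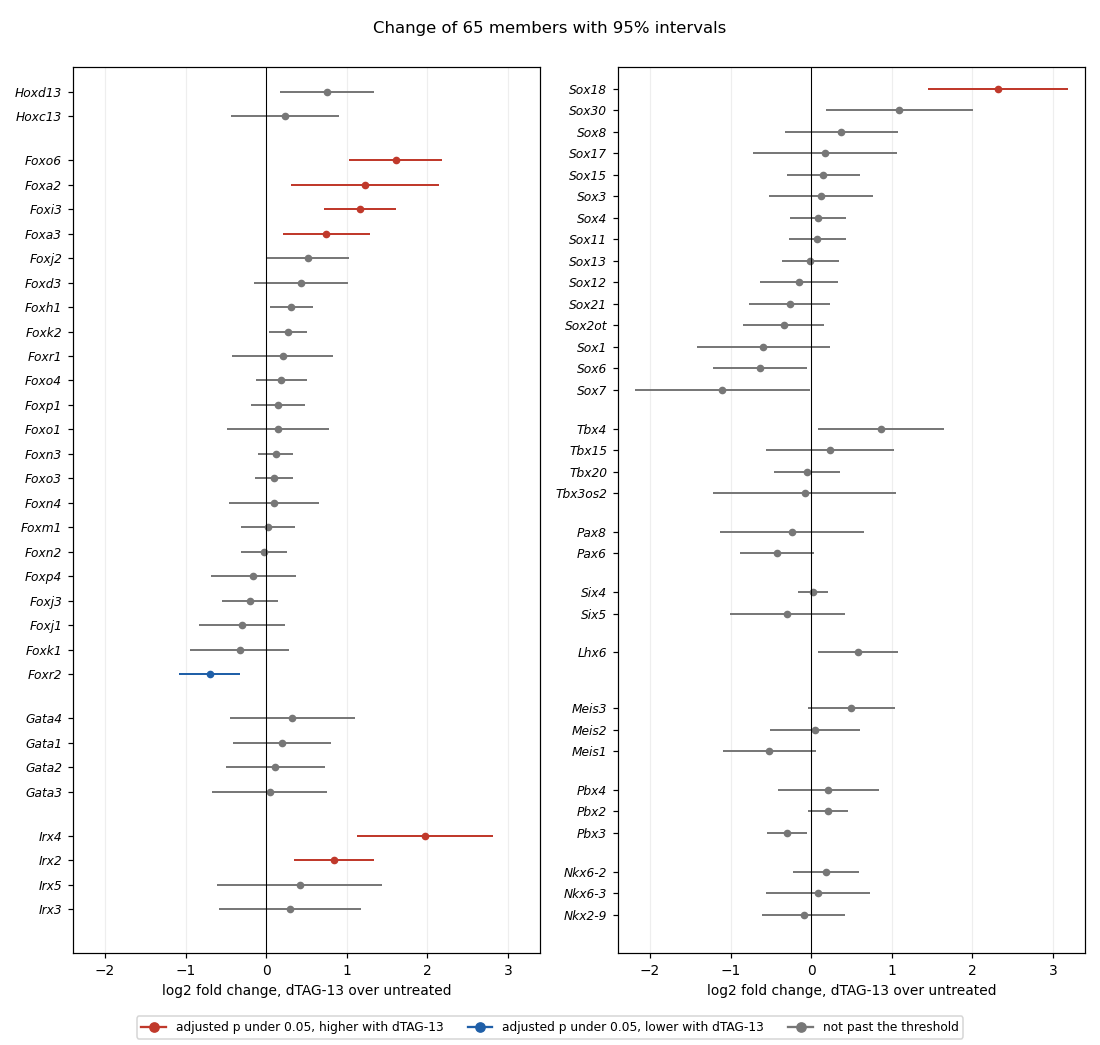
Log2 fold change, dTAG-13 over untreated, of 65 of the 69 members, grouped by family and sorted within it, with 95% intervals from the deposited standard error. Red marks members past the threshold and higher, blue the 1 lower, and grey those not past it. The red intervals lie wholly above 0, and the widest intervals belong to weakly expressed genes such as Sox7 and Tbx3os2.

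The forkhead family supplied 22 members and 5 of the 9 calls. Foxa2 and Foxa3, pioneer factors that open chromatin for endoderm and liver genes, were both higher. Foxa2 had a mean count of 24.2, and the fitted change corresponded to group means of about 14.5 without and 33.8 with dTAG-13 (log2 fold change 1.23, SE 0.46, adjusted p = 0.0434). Its SE was large for its level, where the median of genes of like mean count was 0.34. Foxa3 had a mean count of 39.9 and rose from about 29.8 to 49.9 (log2 fold change 0.74, SE 0.27, adjusted p = 0.0332). Both calls were lost once the trend of change on GC content was removed, with adjusted p of 0.0722 for Foxa2 and 0.0700 for Foxa3. Foxa1, the third member of the trio, lay under the limit at 4.47.

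Foxo6 was higher while the other FoxO genes did not pass the threshold. FoxO proteins act downstream of insulin signalling, and Foxo6 is known chiefly from the brain. Its mean count was 34.5, with group means of about 17.1 and 51.9, a 3.04-fold rise (95% interval 2.06 to 4.49, adjusted p = 1.03e-06). The more abundant Foxo1, Foxo3 and Foxo4 had log2 fold changes of 0.14 (SE 0.32), 0.10 (SE 0.11) and 0.19 (SE 0.15). Their upper 95% bounds were 0.77, 0.32 and 0.49, all under the lower bound of 1.04 for Foxo6. The differences between paralogs were not tested here or below, because the table holds no values per library.

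Foxi3, needed for ectodermal placodes, teeth and hair, rose 2.24-fold from about 39.9 to 89.2 (95% interval 1.66 to 3.02, adjusted p = 5.52e-06). Foxr2, an X-linked and little studied forkhead gene known as an oncogene in brain tumours, was the one member that fell. Its group means were about 131 without and 80.8 with dTAG-13, or 0.614 of the untreated level (95% interval 0.477 to 0.791, adjusted p = 0.00190). Its closest relative Foxr1 (mean count 27.9) was at 0.20 in log2 (SE 0.31). The other X-linked members, Foxo4, Sox3 and Gata1, had values of 0.19, 0.12 and 0.19, and none passed the threshold.

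None of the other 17 forkhead members passed the threshold. Foxn2, the most abundant member, had a log2 fold change of -0.027 (SE 0.14, 95% interval -0.30 to 0.24). Foxh1 (0.31, adjusted p = 0.0772) and Foxk2, a regulator of metabolism (0.27, adjusted p = 0.0793), came nearest to the threshold. The cell cycle factor Foxm1 stood at 0.023 and the repressor Foxp1 at 0.15, while Foxn3 was at 0.12 and Foxn4, a factor of retinal progenitors, at 0.10. Foxj1, which drives motile cilia, was at -0.30, Foxj3 at -0.20, Foxp4 at -0.16 and Foxj2 at 0.51. Foxd3, a factor of the early epiblast and neural crest, was at 0.43 and Foxk1 at -0.33. Foxd3, Foxk1 and Foxo1 had standard errors of 0.29, 0.31 and 0.32 where genes of like level had medians of about 0.15 to 0.16, so changes in them were poorly measured for their depth. Foxk1 lies on chromosome 5, where the median SE of genes was 0.219 against 0.144 to 0.170 on the other chromosomes.

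Sox18 had the largest log2 fold change of the 69 members, at 2.32 (SE 0.44). With Sox7 and Sox17 it forms the SoxF group, which directs the formation of blood and lymph vessels, while Sox17 and Sox7 also act in endoderm. Sox18 had a mean count of 18.4, and the fitted change corresponded to about 6.16 without and 30.7 with dTAG-13, a 4.98-fold rise (95% interval 2.75 to 9.03, adjusted p = 4.85e-06). Sox17 had a log2 fold change of 0.17 (95% interval -0.70 to 1.05). Sox7, at a mean count of 26.1, had the lowest value of all members at -1.10 (95% interval -2.17 to -0.029, adjusted p = 0.155), with a standard error of 0.55 where genes of like level had a median of 0.33. The interval of Sox18 overlapped neither of them. For 5 members (Sox18, Sox30, Sox17, Irx4 and Irx3) the derived untreated level was under the limit of 10 and the level with dTAG-13 above it, and for no member was it the reverse. These 5 entered the list through their level with dTAG-13.

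None of the other 14 Sox members passed the threshold. Sox4, Sox11 and Sox12, the SoxC genes of progenitor cells, had mean counts of 432, 322 and 180 and values of 0.083, 0.078 and -0.15. The neural SoxB genes Sox1, Sox3 and Sox21 were at -0.59, 0.12 and -0.27. Sox6 was at -0.63 (adjusted p = 0.119) and Sox13, from the same SoxD group, at -0.0093. Sox15 had a value of 0.15, the neural crest factor Sox8 of 0.37 and Sox30, a factor of sperm formation, of 1.09 (SE 0.46, adjusted p = 0.0780). The noncoding Sox2ot, which runs over the Sox2 gene on the same strand, was at -0.34 (SE 0.25), and reads within Sox2 cannot be told apart by strand.

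Of the sine oculis genes, which act in sensory placodes, muscle and kidney, Six4 had a mean count of 1073 and a change in log2 of 0.021 (SE 0.089, 95% interval -0.15 to 0.20). In linear terms this interval ran from 0.898 to 1.15 of the untreated level, the narrowest of all members. Six5 was at -0.29 (SE 0.36).

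The Iroquois genes, which set up neural and heart territories, were the one family with more than 1 member past the threshold other than Fox. They form a cluster on chromosome 13 (Irx1, Irx2 and Irx4) and another on chromosome 8 (Irx3, Irx5 and Irx6). Irx2 rose from about 39.2 to 70.0 (log2 fold change 0.84, SE 0.25, adjusted p = 0.00646). Irx4, a gene of the heart ventricle, rose from about 6.08 to 23.9, a 3.92-fold rise (log2 fold change 1.97, 95% interval 1.14 to 2.81, adjusted p = 8.55e-05). The Irx2 and Irx4 genes lie 626 kb apart, and Irx1, the third gene of the cluster, was under the limit at a mean count of 6.31 (log2 fold change 0.19). On chromosome 8, Irx3 was at 0.29 (SE 0.44) and Irx5 at 0.42 (SE 0.52), with mean counts of 10.8 and 12.9. The untreated levels derived for Irx3 and Irx4 were under the limit of 10.

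No member of the other families passed the threshold by the Wald test of DESeq2. Hoxd13, a gene of the posterior body and digits, came closest, at a mean count of 37.3 and a change in log2 of 0.75 (SE 0.29, adjusted p = 0.0523). It was past the threshold when the adjustment covered only genes at or above the limit of 10 (adjusted p = 0.0393). Hoxc13, a hair follicle gene, was at 0.23. Lhx6, a factor of cortical interneurons and the only LIM-homeobox member, was at 0.58 (adjusted p = 0.0798). Tbx4, which acts in hindlimb and lung, was at 0.86 (SE 0.39, adjusted p = 0.110), Tbx15 at 0.23, the heart factor Tbx20 at -0.056 and the noncoding Tbx3os2 at -0.081 (SE 0.58). Hoxd13, Tbx4 and Lhx6 were among the members higher at an unadjusted p under 0.05.

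Among the partners of Hox proteins the signs were mixed. Pbx3 had a log2 fold change of -0.30 (SE 0.12, adjusted p = 0.0544), and it was lower at an unadjusted p under 0.05. Pbx2, the most abundant of them at 417, was at 0.21 and Pbx4 at 0.21. Meis1 was at -0.52, Meis2 at 0.052 and Meis3 at 0.50, with adjusted p of 0.225, 0.928 and 0.204. The 4 GATA members were all above 0 without passing: Gata4, a factor of endoderm and heart, was at 0.32 (SE 0.39), the blood factors Gata1 and Gata2 at 0.19 and 0.11, and Gata3 at 0.041. Both paired-box members were below 0, Pax6 of the eye and brain at -0.42 (SE 0.23) and Pax8 of thyroid and kidney at -0.24 (SE 0.45). The Nkx members lay nearest to 0, with Nkx6-2 at 0.18, Nkx6-3 at 0.088 and Nkx2-9 at -0.091. None of the Gata, Pax, Meis and Nkx members had an unadjusted p under 0.05.

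For many of these genes the data could not show a moderate change. The median SE of the members was 0.28, against 0.16 for all genes. Of the 60 members not past the threshold, 41 had a 95% interval within a 2-fold change in either direction. In the others a change of 2-fold or more lay inside the interval. Among the 87 rows under the limit, the median SE was 1.08 and 1 passed the threshold: Hoxb13, at a mean count of 4.86 (log2 fold change 2.34, adjusted p = 0.0498).

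**Figure D3:**
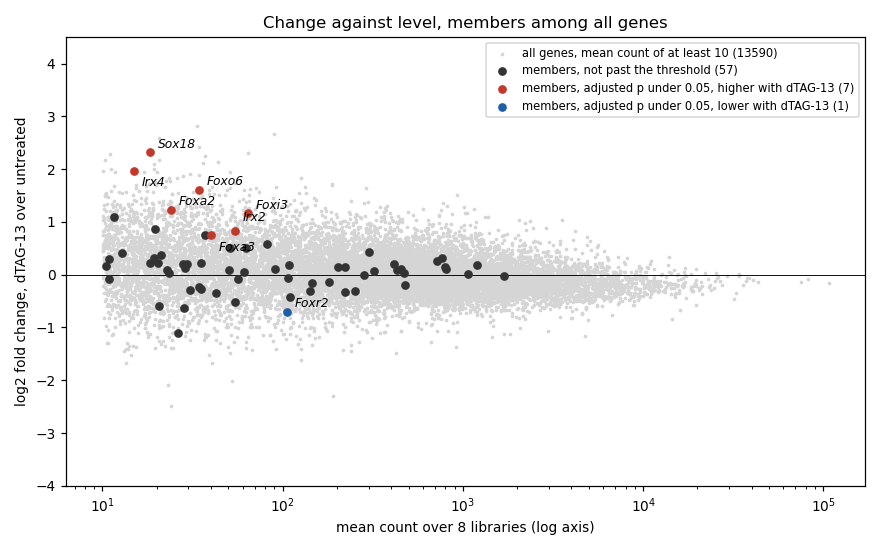
Log2 fold change, dTAG-13 over untreated, against mean count on a log axis. Grey points are all 13590 genes at or above a mean count of 10, black points 57 members not past the threshold, red points 7 higher members and the blue point Foxr2. The red points lie at mean counts from 15.0 (Irx4) to 64.6 (Foxi3), inside the cloud of other genes of like level or at its upper edge, and the members above 200 lie between -0.33 (Foxk1) and 0.43 (Foxd3).

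The transcripts of the members had few exons and high GC content in the median. Their median exon number was 5 against 9 for all genes, and they had 1.58 against 3.44 exons per kilobase. Transcript length was almost the same, with medians of 3016 and 2971 bases, so the exons were longer: the median of the longest exon was 1714 bases against 1339. Median GC content was 54.4% against 50.6%. The members were not uniform, since 13 members had 10 or more exons and 7 had a single one. The density of GGACT in the transcript, 1.07 per kilobase, was like the 1.05 of all genes.

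The calls were unevenly spread over these classes. Of 13 members with 2 exons, 6 were higher, Sox18, Foxo6, Foxa2, Foxi3 and Foxa3 among them, with a median of 0.74, where 23.6% of all 2-exon genes were higher. Sox18 reached the limit of 10 only through its level with dTAG-13. At an unadjusted p under 0.05, 7 of the 13 were higher and 1 lower. None of the 11 members with 3 exons was past the threshold, where 23.8% of all such genes were higher, and 1 had an unadjusted p under 0.05. Together the classes of 2 and 3 exons held 6 higher members of 24, next to 23.7% of all genes in them. None of the 7 members with 1 exon passed, also at an unadjusted p under 0.05, where 13.3% of all such genes were higher. None of the 13 with 10 or more exons passed, with 2 higher and 1 lower at an unadjusted p under 0.05. In that class 9.49% of all genes were higher and 15.8% lower. Of the 25 members with 4 to 9 exons, 2 were higher, Irx2 and Irx4 with 5 and 6 exons, and 1 was lower. In that class 15.4% of all genes were higher and 9.41% lower. At an unadjusted p under 0.05, 5 of the 25 were higher and 3 lower.

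In the quartile of genes with the highest GC content (above 55.3%) there were 30 members, of which 6 were higher, where 21.9% of all genes in that quartile were higher. In the lowest quartile (under 45.9%) there were 7 members, with a median of -0.34 and 1 lower, Foxr2, where 21.2% of all genes were lower. The rank correlation between GC content and log2 fold change was 0.33 over the 69 members and 0.32 over all 13455 genes with a transcript model, all measured in the same libraries. Among the members the longer transcripts had lower values (rank correlation -0.38), a relation that was weak over all genes (-0.061). What part GC content, exon number and level have in the change was not tested.

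**Figure D4:**
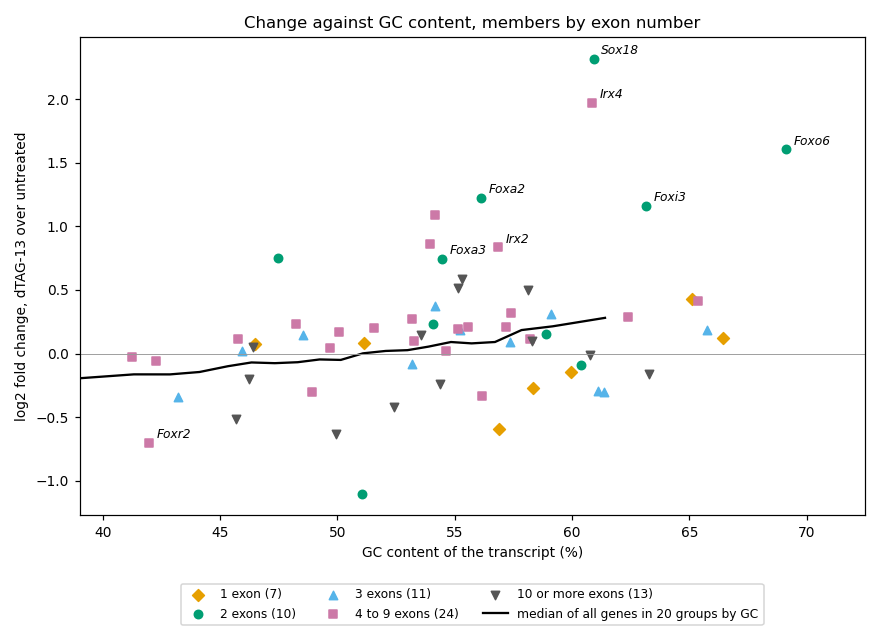
Log2 fold change, dTAG-13 over untreated, of 65 of the 69 members against the GC content of the transcript in percent, with symbols for exon number. The black line joins the medians of all genes in 20 groups of rising GC content. The line rises from below 0 to above 0, and Sox18, Irx4 and Foxo6 stand far above it while Foxr2, at 42.0% GC, lies below.

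A GGACT motif, searched on the transcript strand only, was present in the transcripts of 65 of the 69 members (94.2%) and 91.3% of all genes. It was present in 8 of the 9 members past the threshold, Foxa2 being the exception. The window around the motif nearest to the end of the coding sequence is shown for 7 of them, since METTL3 writes m6A in such motifs. Capitals mark GGACT, the letters run 5′ to 3′ along the RNA with T for U, and positions are on GRCm38 (mm10).
Sox18: aattgcagccGGACTcgaccggatg
Irx4: ataggcaccaGGACTccccagtaac
Foxo6: gtgacgaaatGGACTtcaacttcga
Foxi3: ggtaattactGGACTctggatccaa
Irx2: cagactctaaGGACTggacacacgt
Foxa3: taactgccatGGACTctttggtagg
Foxr2: taaaaaatcgGGACTtctggtacag

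The Foxo6 motif lay 84 bases before the last coding base (chr4:120267990-120268014, minus strand) and the Sox18 motif 148 bases before it (chr2:181670340-181670364, minus strand), both in exon 2 of 2. The Irx4 motif was coding as well, 273 bases before the last coding base in exon 6 of 6 (chr13:73268748-73268772, plus strand). The motifs of Irx2 and Foxa3 lay in the 3′ UTR, 187 and 152 bases after the last coding base (chr13:72633414-72633438, plus strand, and chr7:19013975-19013999, minus strand). The motifs of Foxi3 and Foxr2 were farther off, 589 and 882 bases upstream in the coding sequence (chr6:70960461-70960485 and chrX:153130148-153130172, both plus strand). The Foxi3 model ends soon after its last coding base, so it held almost no 3′ UTR to search. All 7 motifs were in the last exon. They were picked as the nearest to the end of the coding sequence, a choice that favours the last exon. Their place is therefore no result about these genes. Whether these motifs are methylated is not known from these data, and the one that fell, Foxr2, carried 2 motifs as Sox18, Irx2 and Irx4 did.

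Of the 18 nearest genes that reached a mean count of 10 on either side of the 9 called members, 2 were higher, Irx2 and Irx4 as neighbours of each other, and 5 were lower, where 13.5% and 12.0% of all genes were. Sympk, 0.839 kb from Foxa3, was lower (log2 fold change -0.39, adjusted p = 7.47e-05), and so was Thbd, 357 kb from Foxa2 (-1.05, adjusted p = 0.00335). Rragb, 7.12 kb from Foxr2, was lower too (-0.43, adjusted p = 0.000297). None of the 9 called members overlapped an annotated gene on the opposite strand. That matters because it is uncertain whether reads were counted by strand. Of the others, Nkx6-2, Sox15 and Sox8 overlapped an opposite gene that reached a mean count of 10.

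Of the 28 listed cofactors of these proteins, 21 were at or above the limit of 10. Of these, 4 were higher and 2 lower, next to 13.5% and 12.0% of all genes, with a median of -0.015. Zfpm1, the FOG partner of GATA proteins, rose by 1.31 on the log2 scale (SE 0.26, adjusted p = 1.83e-05) while no GATA member passed. Ldb1, the adaptor of LIM-homeobox proteins, rose by 0.31 (SE 0.086, adjusted p = 0.00370), and Lmo4, which binds Ldb1, fell by 0.55 (SE 0.15, adjusted p = 0.00197). Tle4, a corepressor recruited by forkhead proteins among others, fell by 0.43 (SE 0.11, adjusted p = 0.00116). Eya1, a coactivator of the sine oculis proteins, had a log2 fold change of -0.48 (SE 0.24) and did not pass the threshold, and Eya3 was at -0.041.

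Further lineage transcription factors outside the families were listed as well. Of 39 at or above the limit, 12 were higher and 4 lower, with a median of 0.062, next to 13.5% and 12.0% of all genes. The median mean count of this list was 50.3. Of genes with a mean count from 10 to under 100, 13.9% were higher and 4.12% lower. Msx2, a homeobox factor of limb and neural crest, rose by 1.64 (SE 0.31, adjusted p = 4.93e-06), Eomes, a factor of trophoblast and mesendoderm, by 0.70 (SE 0.16, adjusted p = 0.000170) and the mesenchymal factor Prrx2 by 1.78 (SE 0.41, adjusted p = 0.000305). T, the brachyury gene of early mesoderm, fell by 0.89 (SE 0.24, adjusted p = 0.00230).

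The retinoic acid pathway, which induces Hox genes and other members, had 14 genes at or above the limit, of which 2 were higher and 1 was lower, close to the 13.5% and 12.0% of all genes. The receptor Rxra rose by 0.72 (SE 0.15, adjusted p = 2.08e-05) and Rarg by 0.59 (SE 0.20, adjusted p = 0.0185), and Rxrb fell by 0.56 (SE 0.11, adjusted p = 5.98e-06). Of 35 Polycomb and Trithorax genes, 3 were higher and 8 lower, with a median of -0.11, next to the same shares of all genes. The median mean count of this list was 795, and of genes at 100 or more, 13.3% were higher and 15.0% lower. Cbx7, a Polycomb subunit that reads H3K27me3, fell by 0.67 (SE 0.10, adjusted p = 5.24e-09). Kdm6a, a demethylase that removes this mark, fell by 0.42 (SE 0.096, adjusted p = 0.000235). Suz12, Ezh2 and Eed, core subunits of the complex that writes H3K27me3, fell by 0.51, 0.56 and 0.33, with adjusted p of 0.00216, 0.00333 and 0.0143. Ring1 and Cbx8, subunits of the Polycomb complex that ubiquitinates H2A, rose by 0.78 (SE 0.15, adjusted p = 5.53e-06) and 1.50 (SE 0.33, adjusted p = 0.000152). What part, if any, these genes have in the change of the families was not tested.

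The cells expressed the markers of mES cells, averaged over both groups. All 15 stem cell markers had mean counts from 706 to 11934, the 5 highest being Pou5f1 (11934), Dppa5a (9992), Zfp42 (9104), Tdgf1 (8992) and Esrrb (8081). None was higher, also at an unadjusted p under 0.05 of the Wald test of DESeq2, and 4 were lower, where 15.0% of all genes at a mean count of 100 or more were: Nr0b1 by 0.71, Tdgf1 by 0.35, Dppa3 by 0.73 and Dppa5a by 0.40. At an unadjusted p under 0.05, 6 were lower. Pou5f1 was at -0.11 (SE 0.11) and Nanog at 0.074 (SE 0.15). Of 23 germ layer and extraembryonic markers 4 were higher and 2 lower, next to 13.5% and 12.0% of all genes at or above a mean count of 10. The basement membrane collagens Col4a1 (0.80, adjusted p = 8.96e-09) and Col4a2 (0.90, adjusted p = 5.79e-07) were higher, while the basement membrane laminin Lama1 was at -0.34 (95% interval -0.64 to -0.048) and did not pass. The neural adhesion gene Ncam1 was lower (-0.70, adjusted p = 0.0176).

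Feeder fibroblasts also express Twist1, Prrx2 and some of the families. Of the 23 feeder markers 17 reached a mean count of 10, with a sum of 13667 against 71519 for the stem cell markers. Levels within the list were uneven. Col1a1 was at 19.8, Col1a2 at 13.8, Col3a1 at 8.38, Dcn at 7.50, Lum at 1.45 and Postn at 0.768, while Fbn1 was at 361, Tagln at 345, Col5a1 at 226, Thy1 at 116, Acta2 at 103 and Col5a2 at 90.5. The 5 with the highest mean counts, Fn1 (4941), Sparc (3052), Vim (2073), S100a6 (1261) and Lgals1 (972), stood above these. They made up most of the sum, and which cells their RNA came from was not tested. The sum is therefore no measure of the feeder share. Of the 17 markers, 1 was higher, Col5a1 (0.52, SE 0.13), next to 13.5% of all genes at or above a mean count of 10. Another 1 was lower, Vim, at 0.499 of the untreated level (SE 0.28 in log2), next to 12.0% of those genes. The median of the list was 0.16. Whether a change in feeder share had a part in the rise of weakly expressed members such as Sox18 was not tested. In bulk RNA, more cells that express a gene and more RNA per cell cannot be told apart.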

How the data were processed

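Total RNA libraries were made by the authors with rRNA depletion and a stranded kit. Molecule label and methods name total RNA, whereas the labels' extraction protocol is one for chromatin RNA. Per the labels and methods, the authors removed rRNA reads with bowtie2, aligned pairs with STAR to mm10 with strain variants masked, kept unique alignments, removed duplicates with Picard and ran TEtranscripts with default settings, which applies DESeq2. The default counts without strand, but the name of the table carries the word reverse, which can stand for a strand option or for an inverted contrast. The deposited signal column is the mean over libraries of counts divided by size factors (the mean count), and depth per library is unknown. The deposited log2 fold changes and standard errors come from the authors' fit. A deposited score, the Wald statistic, stands beside each. The authors' p-values were given raw and after Benjamini-Hochberg adjustment.

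Values of the comparison are as deposited, with nothing refitted. In all 18694 features (17597 genes, 1097 transposable elements) the statistic, p and adjusted p matched one another to 6 digits. Intervals at 95% are the fold change ± its normal quantile times the SE. Group means were derived from the mean count and fold change, assuming equal weights of both groups. Of the genes, 17366 (98.7%) were matched to GENCODE vM21 (GRCm38), with 1 transcript per gene. The trend removal, by running medians over 20 groups of genes, was tested on simulated data. Python 3.11.15, pandas 2.3.3 and SciPy 1.17.1 were used.

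The members and the 7 gene lists were chosen with earlier results of these data known, so no list was tested. The genes named are the members past the threshold, the most abundant member of each family, the one with the smallest p in families without a call, members with a mean count of at least 1000, those next to the limit, and of each list up to 3 genes past the threshold with the smallest p, or all where 5 or fewer passed. The 5 most abundant feeder and stem cell markers were added. The other members were named to account for the list, except that 4 of the 69 are counted but not reported singly or plotted by change here, and Eya1, Eya3, Ldb1, T, Nanog, Kdm6a, Suz12, Ezh2, Eed, Lama1 and the neighbours were chosen with their values in view. Alternatives were another centring, removal of the trends on GC content and exon density, and adjustment over genes at or above the limit of 10. Others were an adjusted p under 0.01, a 2-fold minimum, a mean count of at least 100, no minimum mean count, and protein-coding members only. Replicates here are 4 libraries per group from 2 clones, and p-values measure the spread between libraries. The authors' default fit had no term for clone or pairing. Replicates of the same clone therefore counted as independent, and differences between the 2 clones entered the spread between libraries. The p-values do not show apart how far the response differs between clones.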

Additional observations from a re-analysis of the deposited data

How the results depend on the processing

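No paired analysis was possible because the table holds no values per library, and for the same reason no library could be left out. Of the 9 calls, all were kept after re-centring on the median of genes counted 100 times or more (a shift of -0.050 in log2), with Foxh1, Foxk2 and Hoxd13 added. Removing the GC trend or the exon density trend left 7 of the 9, without Foxa2 and Foxa3, and added Hoxd13 or Pbx3. The median of the members stayed between 0.087 and 0.17 in these settings. It was 0.050 at a mean count of at least 100, and 0.29 with no minimum mean count. At an adjusted p under 0.01, 7 remained, and with a 2-fold minimum 6 remained, without Foxa3, Foxr2 and Irx2. The number of lower members was 2 with the exon density trend removed, 2 with adjustment over genes at or above the limit of 10, and 0 with a 2-fold minimum. The number of higher members was 1 at a mean count of at least 100, where 13.3% of such genes were higher. With no minimum mean count 9 genes of the families were higher and 1 lower, and among protein-coding members 8 and 1. Genes called in either direction numbered 3526 in the main setting and 3439 after re-centring. They numbered 3081 without the GC trend and 3280 without the exon density trend. Adjustment over genes at or above the limit gave 3770, an adjusted p under 0.01 2230 and a 2-fold minimum 531. Background shares by direction were not worked out for these alternatives, here or for the lists below.

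Signs changed for values near 0: Foxn2 was 0.022 re-centred and 0.14 without the GC trend, Gata2 -0.080, Nkx6-2 -0.099 and Tbx20 0.11 without the GC trend, and Six4 -0.012 without the exon density trend. In the lists, a 2-fold minimum left 7 higher and 1 lower other lineage factors, 1 and 0 cofactors, 0 and 0 retinoic acid genes, 0 lower Polycomb and Trithorax genes, 0 higher feeder markers, 0 lower stem cell markers, and 0 higher and 1 lower germ layer markers. An adjusted p under 0.01 left 1 lower lineage factor, 2 higher cofactors, 1 higher retinoic acid gene, 5 lower Polycomb and Trithorax genes, and 2 higher and 0 lower germ layer markers. Without the GC trend there were 2 higher cofactors, 1 higher retinoic acid gene, 5 higher Polycomb and Trithorax genes and 2 higher germ layer markers. Without the exon density trend 5 Polycomb and Trithorax genes and 2 feeder markers were higher, and re-centring gave 6 higher Polycomb and Trithorax genes. Beyond what the settings themselves change, the cause was not tested.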

Other observations

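Of the 87 rows of these families below the mean count limit of 10, 68 (78.2%) were above 0 in log2, where 63.0% of all 4007 genes under that limit were. Their median was 0.58 against 0.33, and 4 had an unadjusted p under 0.05, where 5.02% of those genes did. Lhx3, a factor of motor neurons and pituitary, stood at a mean count of 4.57 (log2 fold change 2.29, adjusted p = 0.0548 by the Wald test of DESeq2). Hoxd11, a posterior gene of the same cluster as Hoxd13, stood at a mean count of 7.94 (log2 fold change 1.45, adjusted p = 0.148). Values at this depth carry a median SE of 1.08.

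Further lineage factors outside the families were higher: Evx1, which lies beside the Hoxa cluster, rose by 1.07 (adjusted p = 0.000520), Ascl2 of the trophoblast by 1.04 (adjusted p = 0.000921), Tlx1 of the spleen, at a mean count of only 11.8, by 1.95 (adjusted p = 0.00226) and the mesenchymal factors Snai1 and Twist1 by 1.18 and 0.79 (adjusted p of 0.00867 and 0.0146). The Notch targets Hes1 and Hey1 rose by 0.55 and 0.75, with adjusted p of 0.0257 and 0.0243. Otx2, a factor of the epiblast and forebrain, fell by 0.51 (adjusted p = 0.0193), and Cdx4, an activator of posterior Hox genes, by 1.44 (adjusted p = 0.0302). These genes were chosen with their values in view.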
